A study of Rattus norvegicus with 8 samples.

Results

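The collagens, laminins, fibrillins, fibulins, small proteoglycans, matricellular proteins, matrix metalloproteinases and their inhibitors were followed in the developing rat pineal gland. They were taken by gene symbol: collagen alpha chains (Col), laminin chains (Lama, Lamb, Lamc), Fbn1, Fbn2, the Fbln genes, Postn, Lum, Dcn, Bgn, Sparc, the Thbs genes, the Mmp and Timp genes, Fn1, Eln and Dpt. The rule found 67 genes, each with 1 row, among 16932 transcripts. The glands came from Sprague-Dawley rats kept in 14 h of light and 10 h of dark, with no genotype or treatment contrast. Tissue was collected at embryonic day 21 (E21) and postnatal days 5 (P5), 20 (P20) and 40 (P40), each at mid-night (zeitgeber time, ZT, 19 h) and mid-day (ZT 7 h). Each age and time has 1 library of poly(A) RNA made from pooled glands, 8 libraries in all, and the pools held 15 and 13 animals (mid-night and mid-day) for E21, 19 and 17 for P5, 10 and 13 for P20, and 3 and 3 for P40. The design asks how the pineal transcriptome changes over development and which transcripts differ between night and day at each age.

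The extracellular matrix is the meshwork of secreted proteins around cells. Fibrillar collagens, the elastic fibre proteins and small proteoglycans build connective tissue, mostly from fibroblasts, while type IV collagen and laminins form the basement membranes beneath endothelium and epithelium. Matrix metalloproteinases cut these proteins and the Timp proteins inhibit them. The pineal gland, whose pinealocytes make melatonin at night, has a connective tissue capsule continuous with the meninges and a dense bed of capillaries.

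Values are FPKM (sequenced fragments divided by transcript length and by library size), so levels can be set side by side between genes. Changes are differences of log2(FPKM + 1), tested over all transcripts with limma and adjusted for multiple testing by the Benjamini-Hochberg method, and a gene is said to have risen or fallen where the adjusted p was under 0.05. The fit takes the spread between the mid-night and mid-day libraries of an age, after 1 shared time-of-day effect, as its error, so the p-values measure only the spread between these pools. Of the 67 genes, 48 reached 1 FPKM in at least 2 libraries and were tested among 9960 transcripts. The other 19 are accounted for with their families.

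The libraries each held between 8598 and 9533 transcripts at 1 FPKM or more, and their relative depth, read from the smallest FPKM steps, ranged from 0.411 to 1. Pinealocyte genes were present in every library, as for Tph1, the rate-limiting enzyme of serotonin synthesis, at 331 and 369.6 FPKM at E21, 1739.9 and 2316 FPKM at P5, 1929.5 and 2350 FPKM at P20 and 2525 and 2756 FPKM at P40 (mid-night and mid-day). The P5 libraries stood apart by choroid plexus markers, whose summed FPKM over 13 genes was, at mid-night and mid-day, 1688 and 1386 FPKM at E21, 18506 and 3369.5 FPKM at P5, 967 and 718 FPKM at P20 and 1098 and 769.6 FPKM at P40. Within that sum Ttr, which encodes the thyroxine carrier transthyretin, had 17323 and 2889 FPKM at P5. Tnnc2, a fast skeletal muscle troponin, also stood at 5.31 and 9.83 FPKM at P5 and at 0.452 FPKM or less in each library of the other ages. The part of these markers in the results below was not tested.

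The transcripts of matrix genes made up a smaller share of the pineal transcriptome at each later age. Their summed level in the mid-night and mid-day libraries was 2179 and 1611 FPKM at E21, 1418 and 1109 FPKM at P5, 598 and 701 FPKM at P20 and 529 and 618 FPKM at P40. That was 1.67% and 1.11% of all FPKM for E21, 0.893% and 0.794% for P5, 0.487% and 0.505% for P20, and 0.375% and 0.468% for P40. In bulk tissue, fewer cells of a type and less RNA per cell cannot be told apart.

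**Figure D1:**
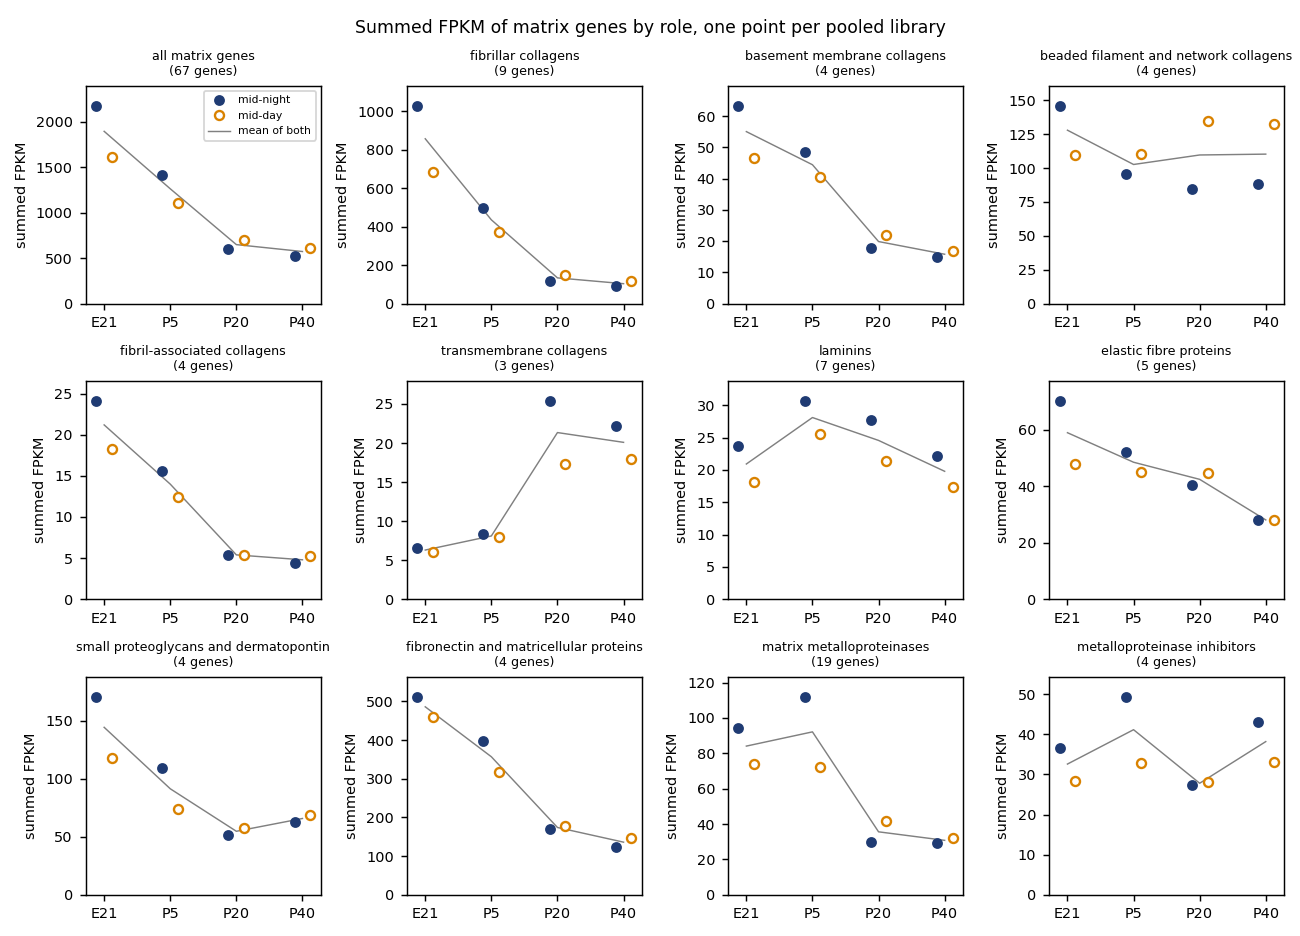
Summed FPKM of all 67 matrix genes and of each of 11 roles (y axes, from 0) at E21, P5, P20 and P40 (x axes). Each point is 1 pooled library (filled mid-night, open mid-day) and the grey line joins the mean of both. The fibrillar collagens were lower at every later age, while the transmembrane collagens were higher at P20 and P40 than at E21 and P5.

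Between E21 and P40, 29 of the 48 tested genes fell (60.4%) and 6 rose (12.5%). Over all 9960 transcripts tested, 26.8% were lower and 16.1% were higher at P40. The genes that fell were led by Postn, the fibrillar collagens Col5a2, Col1a1, Col1a2, Col3a1 and Col5a1, Fbn2, Lum, Col16a1 and Mmp14. Mmp23, also counted among them, reached 1 FPKM in the 2 E21 libraries alone and so passed the filter only through the age at which it was high. Fbn2, Col16a1, Col27a1 and Col9a2 reached 1 FPKM at E21 and P5 alone, and so passed the filter only through the ages at which they were higher. Those that rose were Dpt, Col5a3, Col4a3, Col23a1, Col4a4 and Timp2. The median log2 change was -1.07 over the tested matrix genes and -0.18 over all transcripts tested. That of the matrix genes was -0.54 with a pseudocount of 5, -0.64 with no filter on low values and -1.58 with a filter at 5 FPKM. A test over all 4 ages together called 36 of the 48 genes (75.0%), against 36.4% of all transcripts.

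Of the 35 genes called between P40 and E21, 24 were called under each of the 18 other settings in which they were tested. The other 11 each lost the call in at least 1: Bgn, Col14a1, Col27a1, Col4a4, Col6a2, Col9a2, Dcn, Fbn1, Lamc3, Sparc and Timp2. With both P5 libraries left out, an alternative chosen after the data had been seen, 28 genes were lower and 5 were higher. Median centring moved the median of all transcripts to 0.01 and gave 2004 lower and 2175 higher transcripts, against 2674 and 1602 as deposited, with 27 matrix genes lower and 7 higher. Quantile normalization gave 2176 lower and 1957 higher transcripts, and the same 27 and 7 counts of matrix genes.

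**Figure D2:**
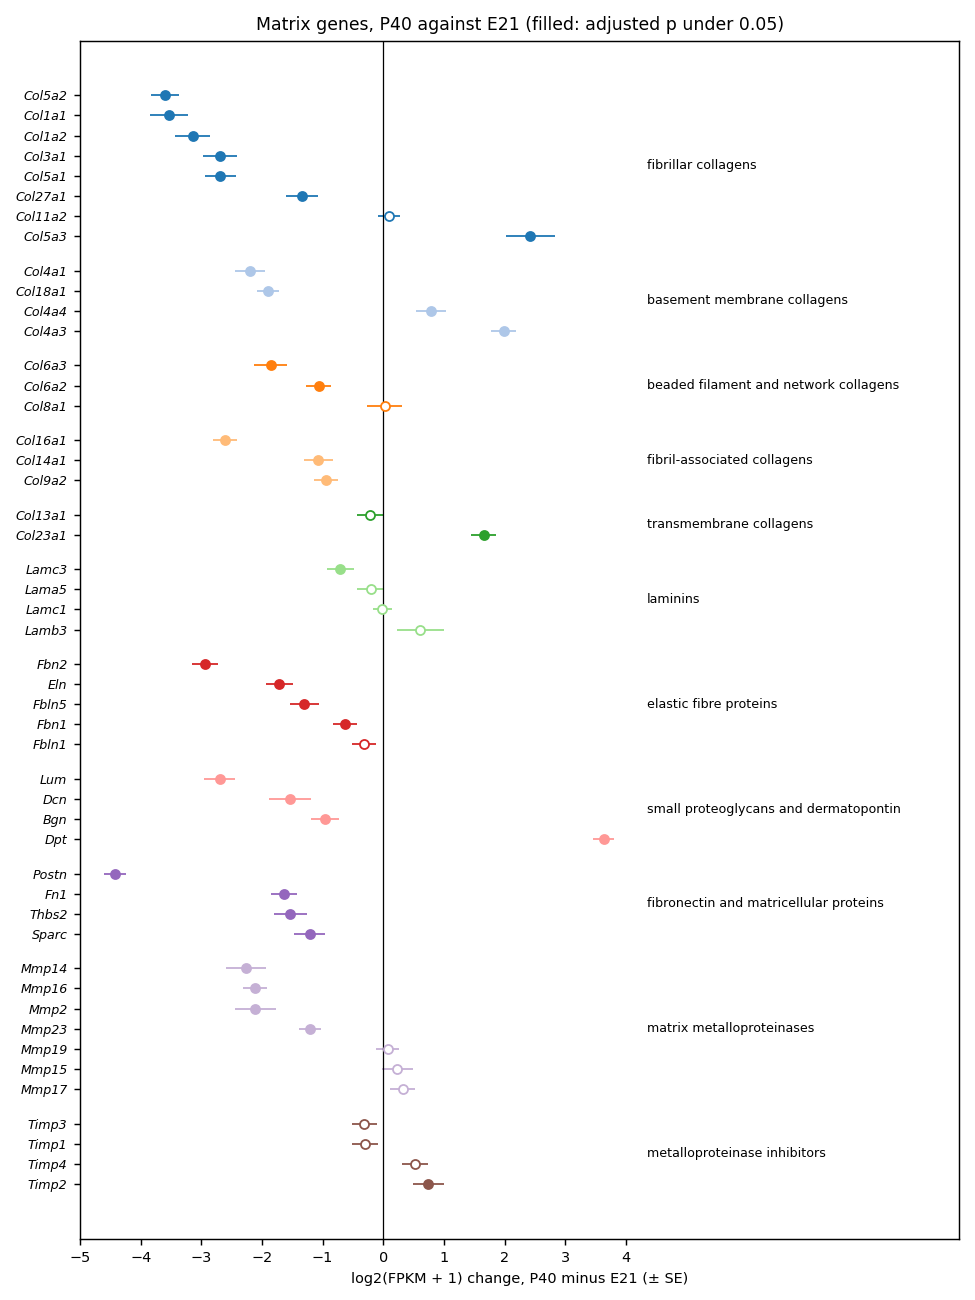
Change in log2(FPKM + 1), P40 minus E21, with its standard error (x axis) for the 48 tested matrix genes, grouped by role (y axis). Filled points had an adjusted p under 0.05. Fibrillar, fibril-associated and matricellular genes lie mostly left of 0, Dpt and Col5a3 far to the right.

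The fibrillar collagens, which assemble into the cables of connective tissue, held most of the difference. Of 9 genes, 8 were tested, and 6 of them fell and 1 rose by P40. Their summed level in the mid-night and mid-day libraries was 1031 and 685 FPKM at E21, 500.2 and 372 FPKM at P5, 119.5 and 149 FPKM at P20 and 90 and 118 FPKM at P40, so the P40 mean was 0.121 times the E21 mean. Col1a2, the second chain of type I collagen (rn4 chr4:29393644-29428572), was at 339.7 and 226 FPKM at E21, 152 and 108 FPKM at P5, 37 and 47.1 FPKM at P20 and 27.1 and 34.3 FPKM at P40 (mid-night and mid-day). Col1a1, the main type I chain, measured 269 and 174 FPKM at E21, 119.7 and 82.8 FPKM at P5, 22.7 and 28 FPKM at P20 and 14.5 and 21.6 FPKM at P40 in the mid-night and mid-day libraries. Both were highest in the E21 libraries and lowest in the P40 libraries, with no overlap between those ages. The change was -3.14 ± 0.29 (SE; adjusted p = 1.95e-04) for Col1a2 and -3.54 ± 0.31 (SE; adjusted p = 1.61e-04) for Col1a1.

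Col3a1, the chain of type III collagen found in pliable tissues, had, at mid-night and mid-day, 309 and 190.1 FPKM at E21, 173 and 140.3 FPKM at P5, 42.5 and 47.7 FPKM at P20 and 32.5 and 41.3 FPKM at P40. Col5a2, a chain of the type V collagen that nucleates fibrils, was at 84.4 and 75.4 FPKM at E21, 37.4 and 26.3 FPKM at P5, 7.22 and 8.11 FPKM at P20 and 4.81 and 6.71 FPKM at P40 (mid-night and mid-day). Col5a2 lies 56280 bp from Col3a1 on chromosome 9 (rn4 chr9:44374112-44525086 and chr9:44281581-44317831), and both were lower in every P40 library than in every E21 library. They changed by -3.59 ± 0.23 (SE; adjusted p = 4.92e-05) for Col5a2 and -2.69 ± 0.28 (SE; adjusted p = 3.23e-04) for Col3a1. Col5a1, the partner chain of Col5a2, measured 22.3 and 14.8 FPKM at E21, 10.4 and 8.33 FPKM at P5, 2.7 and 3.65 FPKM at P20 and 1.67 and 2.34 FPKM at P40 in the mid-night and mid-day libraries, a change of -2.69 ± 0.26 (SE; adjusted p = 2.23e-04). Col27a1, a fibrillar chain best known from cartilage, changed by -1.35 ± 0.26 (SE; adjusted p = 0.00523), and its adjusted p was 0.052 without the P40 mid-night library.

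The third type V chain went the other way. Col5a3 had, at mid-night and mid-day, 1.64 and 0.339 FPKM at E21, 2.48 and 3.73 FPKM at P5, 5.51 and 12.4 FPKM at P20 and 8.0 and 10.4 FPKM at P40. It was higher in both P40 libraries than in both E21 libraries, by 2.43 ± 0.41 (SE; adjusted p = 0.00279). The ratio of Col5a3 to Col5a1 FPKM was, at mid-night and mid-day, 4.8 and 4.42 at P40 and 0.0736 and 0.0229 at E21. Within type I collagen the ratio of Col1a2 to Col1a1 moved far less, with 1.87 and 1.58 at P40 and 1.26 and 1.3 at E21. Col11a2, a fibrillar chain of cartilage and inner ear, missed the test at 0.10 ± 0.18 (SE; adjusted p = 0.688), and Col2a1, the main cartilage collagen, was not tested because it never passed 0.862 FPKM.

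The promoters of genes with opposite courses are shown for Col1a2 and Postn, which fell, and for Dpt, which rose. They are RefSeq sequences on the GRCr8 build, 5′ to 3′ on the plus strand, cut from windows of 250 bases before to 50 bases after the gene start. The Col1a2 stretch runs from 250 to 121 bases before the gene start, and those of Postn and Dpt from 120 to 1. The TATAAA of Col1a2 therefore lies farther from its gene start than those of Postn and Dpt. Capitals mark CCAAT or TATAAA, read on either strand.
Col1a2, chr4:33518307-33518436: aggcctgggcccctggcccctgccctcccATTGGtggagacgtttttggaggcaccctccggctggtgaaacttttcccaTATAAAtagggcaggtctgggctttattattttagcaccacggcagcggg
Postn, chr2:140677941-140678060: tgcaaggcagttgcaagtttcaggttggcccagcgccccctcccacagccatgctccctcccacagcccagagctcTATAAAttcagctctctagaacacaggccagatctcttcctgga
Dpt, chr13:79656221-79656340: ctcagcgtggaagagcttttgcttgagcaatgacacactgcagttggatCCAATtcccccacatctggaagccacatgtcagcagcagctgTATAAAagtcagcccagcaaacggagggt
Each of the 3 holds a TATAAA, and Col1a2 and Dpt also hold a CCAAT (in Col1a2 on the minus strand, printed as ATTGG). Of the 67 genes, 48 matched a promoter in the reference table of 27457. TATAAA lay in 13 of these 48 windows (27.1%), against 14.3% of all promoters, and CCAAT in 13 of 48 (27.1%), against 37.7%. Of the 13 windows with TATAAA, 7 belong to the 8 genes of an untested Mmp cluster described below. The other 40 matrix promoters held 6 (15.0%), near the share of all promoters. GGGCGG, a GC box, lay in 22 of 48 (45.8%) and in 34.9% of all promoters, CAGACA in 9 of 48 (18.8%) and in 20.8%, and GGAATG in 9 of 48 (18.8%) and in 13.9%. Among genes that fell by P40, 17 had a promoter and 2 of these, Col1a2 and Postn, held TATAAA. Among the 6 that rose 1 did, Dpt, so the 3 promoters shown are the ones with this motif. The motif matches are of letters only.

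The basement membrane collagens split by chain. Of 4 genes, all tested, 2 fell and 2 rose. Col4a1, the ubiquitous type IV chain, was at 50.3 and 33.7 FPKM at E21, 35.5 and 29.9 FPKM at P5, 8.5 and 11 FPKM at P20 and 7.17 and 9.37 FPKM at P40 (mid-night and mid-day). Col18a1, whose C-terminal fragment is endostatin, measured 12.8 and 12.4 FPKM at E21, 10.9 and 8.8 FPKM at P5, 3.42 and 3.17 FPKM at P20 and 2.49 and 2.81 FPKM at P40 in the mid-night and mid-day libraries. Both were lower in every library of P20 and P40 than in every library of E21 and P5. They changed from E21 by -2.20 ± 0.25 (SE; adjusted p = 5.13e-04) for Col4a1 and -1.90 ± 0.18 (SE; adjusted p = 2.2e-04) for Col18a1.

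Col4a3, a chain of the specialised type IV network known from kidney and lung, had, at mid-night and mid-day, 0.11 and 0.258 FPKM at E21, 1.06 and 0.777 FPKM at P5, 4.44 and 6.11 FPKM at P20 and 3.5 and 3.86 FPKM at P40. Col4a4, its partner chain, was at 0.171 and 0.353 FPKM at E21, 0.976 and 1.04 FPKM at P5, 1.31 and 1.82 FPKM at P20 and 1.69 and 0.75 FPKM at P40 (mid-night and mid-day). Col4a3 did not overlap between the younger and the older ages, while Col4a4 at P5 overlapped its P40 values. The changes were 1.98 ± 0.20 (SE; adjusted p = 2.96e-04) for Col4a3 and 0.79 ± 0.25 (SE; adjusted p = 0.0344) for Col4a4, and Col4a4 lost its call without the E21 mid-night library (adjusted p = 0.193), the P40 mid-night library (adjusted p = 0.312) and 6 other settings. The ratio of Col4a3 to Col4a1 FPKM was 0.488 and 0.412 at P40 (mid-night and mid-day), against 0.00218 and 0.00766 at E21.

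Col4a3 and Col4a4 lie head to head. In rn4 their bodies are 566 bp apart on chromosome 9 (chr9:81866834-81910088 and chr9:81910655-82036998), and in GRCr8 their starts are 412 bases apart on opposite strands. The 250 bases before the Col4a3 start are shown because 88 of them, in capitals, are also inside the window of Col4a4.
Col4a3, GRCr8 chr9:91323740-91323989, plus strand: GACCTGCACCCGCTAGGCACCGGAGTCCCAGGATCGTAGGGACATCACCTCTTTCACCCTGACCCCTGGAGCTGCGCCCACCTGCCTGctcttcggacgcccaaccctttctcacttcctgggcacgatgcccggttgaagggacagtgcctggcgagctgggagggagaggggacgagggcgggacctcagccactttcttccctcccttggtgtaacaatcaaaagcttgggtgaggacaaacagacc
The shared stretch is chr9:91323740-91323827. Col4a3 to Col4a4 FPKM ratios were 0.641 and 0.732 for E21, 1.08 and 0.746 for P5, 3.38 and 3.36 for P20 and 2.06 and 5.14 for P40 (mid-night and mid-day). The ratio was higher in each P20 and P40 library than in each E21 and P5 library. Many of these values are low: both genes stood at 0.353 FPKM or less at E21 and at 1.06 FPKM or less at P5. Col4a4 was at 0.75 FPKM in the P40 mid-day library.

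Among beaded filament and network collagens, 2 of 3 tested genes fell, and Col8a1 missed the test. Col8a1, a short-chain collagen of endothelial and corneal basement layers, measured 105 and 82.7 FPKM at E21, 69.1 and 88.1 FPKM at P5, 68.7 and 118 FPKM at P20 and 75.7 and 118 FPKM at P40 in the mid-night and mid-day libraries. Its ages overlapped throughout, and the change was 0.02 ± 0.29 (SE; adjusted p = 0.958). Col8a1 made up 14.3 and 19.1% of all matrix FPKM at P40 (mid-night and mid-day), against 4.8 and 5.13% at E21. The type I and III chains together (Col1a1, Col1a2, Col3a1) made up 14 and 15.7% at P40, against 42.1 and 36.6% at E21.

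Col6a2, a chain of the beaded filaments around cells, had, at mid-night and mid-day, 32.4 and 22.4 FPKM at E21, 21.3 and 18.3 FPKM at P5, 14.5 and 15.3 FPKM at P20 and 11.5 and 13.3 FPKM at P40. Col6a3, another chain of type VI collagen, was at 8.42 and 4.26 FPKM at E21, 4.34 and 2.91 FPKM at P5, 0.837 and 0.973 FPKM at P20 and 0.84 and 1.05 FPKM at P40 (mid-night and mid-day). Both were lower in each P40 library than in each E21 library, with changes of -1.86 ± 0.27 (SE; adjusted p = 0.00143) for Col6a3 and -1.06 ± 0.21 (SE; adjusted p = 0.00554) for Col6a2. The Col6a2 call had an adjusted p of 0.064 without the P40 mid-night library. Col7a1, the anchoring fibril collagen of skin, reached no more than 0.676 FPKM and was not tested.

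All 3 tested fibril-associated collagens, which decorate the surface of fibrils, fell. Col16a1 measured 11.9 and 9.98 FPKM at E21, 3.58 and 2.62 FPKM at P5, 0.83 and 0.992 FPKM at P20 and 0.964 and 0.939 FPKM at P40 in the mid-night and mid-day libraries. Col14a1 had, at mid-night and mid-day, 10.9 and 6.76 FPKM at E21, 10.2 and 8.62 FPKM at P5, 4.05 and 3.88 FPKM at P20 and 3.12 and 4.07 FPKM at P40. Col9a2 was at 1.25 and 1.51 FPKM at E21, 1.82 and 1.15 FPKM at P5, 0.445 and 0.491 FPKM at P20 and 0.272 and 0.208 FPKM at P40 (mid-night and mid-day). Col16a1 had dropped by P5, whereas Col14a1 and Col9a2 had P5 values overlapping those of E21. The changes between P40 and E21 were -2.61 ± 0.19 (SE; adjusted p = 8.12e-05) for Col16a1, -1.07 ± 0.23 (SE; adjusted p = 0.00858) for Col14a1 and -0.94 ± 0.20 (SE; adjusted p = 0.00707) for Col9a2. The Col14a1 call was lost without the E21 mid-night library (adjusted p = 0.071) or the P40 mid-night library (0.087), and that of Col9a2 without the E21 mid-day library (0.066). Col9a1, the partner of Col9a2 in cartilage, was at 0.0692 FPKM or less.

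The transmembrane collagens carry their triple helices on the cell surface. Col23a1 measured 5.48 and 5.5 FPKM at E21, 6.77 and 6.87 FPKM at P5, 24.5 and 15.9 FPKM at P20 and 21.6 and 17.5 FPKM at P40 in the mid-night and mid-day libraries. Every library of P20 and P40 lay above every library of E21 and P5, and the change was 1.66 ± 0.20 (SE; adjusted p = 6.86e-04). Col13a1, known from the neuromuscular junction, had, at mid-night and mid-day, 1.03 and 0.54 FPKM at E21, 1.41 and 0.974 FPKM at P5, 0.891 and 1.37 FPKM at P20 and 0.619 and 0.418 FPKM at P40, with E21 and P40 overlapping and a change of -0.22 ± 0.22 (SE; adjusted p = 0.436). Col17a1, a hemidesmosome collagen, did not pass 0.112 FPKM and was not tested.

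Of the 7 laminin chains 4 were tested, and 1 of them, Lamc3, fell between E21 and P40. Lamc1, the most widely used gamma chain, was at 18.9 and 15.3 FPKM at E21, 23.4 and 20.2 FPKM at P5, 23.6 and 18.5 FPKM at P20 and 18.2 and 15.5 FPKM at P40 (mid-night and mid-day). Its P40 values lay among those of E21 (-0.02 ± 0.16 SE, adjusted p = 0.937). Lama5, an alpha chain of mature vessels and epithelia, measured 1.5 and 0.743 FPKM at E21, 3.15 and 1.83 FPKM at P5, 0.855 and 0.801 FPKM at P20 and 0.753 and 0.862 FPKM at P40 in the mid-night and mid-day libraries, highest at P5 and with a change of -0.21 ± 0.22 (SE; adjusted p = 0.476).

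Lamc3, a gamma chain known from retina and brain surface, had, at mid-night and mid-day, 1.94 and 1.2 FPKM at E21, 1.92 and 1.66 FPKM at P5, 0.812 and 1.31 FPKM at P20 and 0.511 and 0.601 FPKM at P40. It was lower at P40, with a change of -0.71 ± 0.22 (SE; adjusted p = 0.0334), a call lost under 6 settings, among them the fits without the E21 mid-night library (adjusted p = 0.264), the P40 mid-night library (0.179) and the P40 mid-day library (0.101). Lamb3, the beta chain of laminin-332, is described with the night values. Lama1 was at 0.848 FPKM or less and Lamb2 was listed at 0 in all 8 libraries, so neither was tested.

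Of the 5 elastic fibre proteins, 4 fell. Fbn2, the fibrillin of fetal microfibrils, was at 8.83 and 5.72 FPKM at E21, 2.5 and 2.19 FPKM at P5, 0.13 and 0.20 FPKM at P20 and 0.0187 and 0.106 FPKM at P40 (mid-night and mid-day). Each age lay below the age before it without overlap, and between E21 and P40 the change was -2.94 ± 0.22 (SE; adjusted p = 7.67e-05). The P20 and P40 values, at 0.20 FPKM or less, were too low to set against each other. Between P40 and P20 the change was -0.13 ± 0.22 (SE; adjusted p = 0.979). Fbn1, the fibrillin that persists in adult tissue, measured 14 and 9.09 FPKM at E21, 14.4 and 12.9 FPKM at P5, 9.15 and 8.81 FPKM at P20 and 6.95 and 7.03 FPKM at P40 in the mid-night and mid-day libraries. The Fbn1 change of -0.62 ± 0.20 (SE; adjusted p = 0.0351) lost its call under 9 settings, 3 of them other scalings, and without the E21 mid-night library its adjusted p was 0.274.

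Eln, which encodes elastin, had, at mid-night and mid-day, 19.8 and 12.1 FPKM at E21, 17.8 and 17.2 FPKM at P5, 16.1 and 17.8 FPKM at P20 and 4.06 and 4.01 FPKM at P40. Its level stayed between 12.1 and 19.8 FPKM through P20 and both P40 libraries lay far below. The change was -1.71 ± 0.22 (SE; adjusted p = 8.58e-04) between P40 and E21 and -1.83 ± 0.22 (SE; adjusted p = 0.13) between P40 and P20, the largest of the 48 genes for that last step, in which no transcript was called. Fbln1, a fibulin of basement membranes and elastic fibres, was at 23.2 and 17.9 FPKM at E21, 13.4 and 10.1 FPKM at P5, 14.3 and 16.7 FPKM at P20 and 16.1 and 16.1 FPKM at P40 (mid-night and mid-day), with its lowest values at P5, and missed the test at -0.32 ± 0.20 (SE; adjusted p = 0.231). Fbln5, which helps elastin assemble, fell by P40 (-1.30 ± 0.24 SE, adjusted p = 0.00423).

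The small proteoglycans bind collagen fibrils. Lum, lumican, measured 63.9 and 46.5 FPKM at E21, 35.1 and 18.1 FPKM at P5, 8.65 and 7.44 FPKM at P20 and 6.94 and 8.19 FPKM at P40 in the mid-night and mid-day libraries. Dcn, decorin, had, at mid-night and mid-day, 62.5 and 40.9 FPKM at E21, 34.9 and 21.3 FPKM at P5, 14.3 and 16 FPKM at P20 and 12.5 and 22.5 FPKM at P40. These neighbours, 38289 bp apart on chromosome 7 (rn4 chr7:35004233-35045189 and chr7:35083479-35090284), were both highest in the E21 mid-night library. Lum changed by -2.70 ± 0.26 (SE; adjusted p = 2.3e-04) and Dcn by -1.53 ± 0.35 (SE; adjusted p = 0.00972), and Dcn lost its call without the E21 mid-night library (adjusted p = 0.061) or the P40 mid-night library (0.078).

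Bgn, biglycan, was at 43.6 and 29.6 FPKM at E21, 37.7 and 33 FPKM at P5, 13.4 and 18.2 FPKM at P20 and 18.9 and 17.1 FPKM at P40 (mid-night and mid-day). Its change of -0.96 ± 0.24 (SE; adjusted p = 0.0137) lost its call without the E21 mid-night, P40 mid-day or P40 mid-night library (adjusted p = 0.10, 0.077 and 0.074). Dpt, dermatopontin, a small protein that binds decorin and collagen (rn4 chr13:80562889-80591361), ran the other way: it measured 0.924 and 0.883 FPKM at E21, 1.46 and 1.18 FPKM at P5, 15.2 and 16.2 FPKM at P20 and 24.5 and 20.8 FPKM at P40 in the mid-night and mid-day libraries. The E21 and P5 libraries stayed below 1.5 FPKM and the P20 and P40 libraries above 15. The change of 3.63 ± 0.18 (SE; adjusted p = 2.26e-05) was the largest rise among the matrix genes.

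Fibronectin and the 3 matricellular proteins all fell. Postn, periostin, a protein of developing and remodelling connective tissue (rn4 chr2:143537098-143568341), had, at mid-night and mid-day, 163 and 177 FPKM at E21, 59.5 and 66.7 FPKM at P5, 11.3 and 10.1 FPKM at P20 and 6.24 and 7.75 FPKM at P40. Its ages did not overlap and its change of -4.43 ± 0.18 (SE; adjusted p = 1.34e-05) was the largest fall of any matrix gene tested. Sparc, a collagen-binding glycoprotein, was at 295 and 246 FPKM at E21, 299 and 222 FPKM at P5, 148 and 157 FPKM at P20 and 106 and 126 FPKM at P40 (mid-night and mid-day). Sparc changed by -1.22 ± 0.26 (SE; adjusted p = 0.00808). Without the P40 mid-night library the change was -0.99 and the call was lost. Sparc was the most abundant single matrix transcript in every library except E21 mid-night, with 20 and 20.4% of matrix FPKM at P40 (mid-night and mid-day).

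Fn1, fibronectin, the adhesive glycoprotein that integrins bind, measured 39.5 and 26.1 FPKM at E21, 25.2 and 20.6 FPKM at P5, 7.07 and 7.4 FPKM at P20 and 9.23 and 10.2 FPKM at P40 in the mid-night and mid-day libraries. Thbs2, thrombospondin-2, an inhibitor of vessel growth, had, at mid-night and mid-day, 14.3 and 10.1 FPKM at E21, 12.5 and 7.59 FPKM at P5, 3.03 and 4.14 FPKM at P20 and 3.09 and 3.96 FPKM at P40. Both were lower at P40 than at E21 without overlap, with changes of -1.63 ± 0.21 (SE; adjusted p = 8.86e-04) for Fn1 and -1.53 ± 0.28 (SE; adjusted p = 0.00371) for Thbs2.

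**Figure D3:**
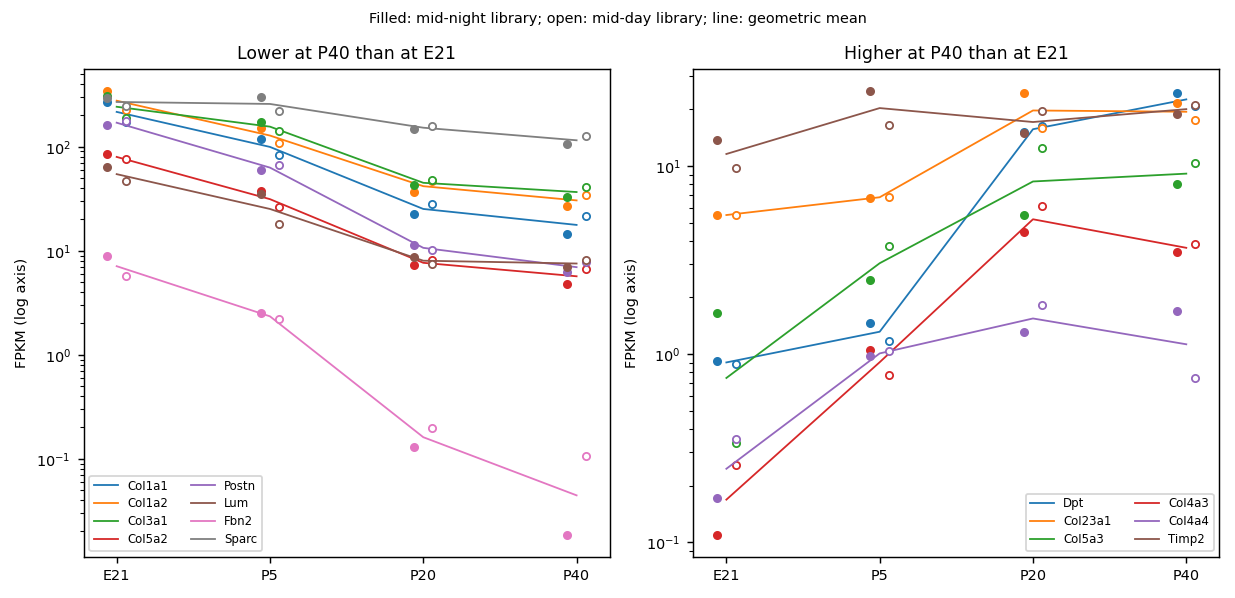
FPKM (log axis) at E21, P5, P20 and P40 of 8 matrix genes that were lower at P40 than at E21 (left) and of the 6 that were higher (right). Filled points are mid-night libraries, open points mid-day libraries and lines geometric means. Postn and Fbn2 were lower at each later age, though Fbn2 at P20 and P40 stood at only 0.20 FPKM or less. Dpt stayed under 1.5 FPKM until P5 and stood above 15 FPKM at P20 and P40.

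Of the 19 matrix metalloproteinases, 7 were tested, 4 fell, Mmp23 counted among them, and none rose by P40. Mmp14, the membrane-anchored collagenase that activates Mmp2, was at 41.3 and 34.6 FPKM at E21, 37.2 and 26.7 FPKM at P5, 7.96 and 11.8 FPKM at P20 and 4.85 and 10.1 FPKM at P40 (mid-night and mid-day). Mmp2, gelatinase A, measured 26.1 and 16.3 FPKM at E21, 52.6 and 22.6 FPKM at P5, 6.39 and 6.98 FPKM at P20 and 3.5 and 4.61 FPKM at P40 in the mid-night and mid-day libraries. Mmp2 peaked in the P5 mid-night library, and Mmp14 was lowest in the P40 mid-night library. They changed by -2.27 ± 0.33 (SE; adjusted p = 0.00135) for Mmp14 and -2.11 ± 0.34 (SE; adjusted p = 0.00235) for Mmp2 between P40 and E21. Mmp15, another membrane-type enzyme, had, at mid-night and mid-day, 14.7 and 11.2 FPKM at E21, 13.4 and 14.4 FPKM at P5, 10.4 and 16.9 FPKM at P20 and 16.7 and 14 FPKM at P40, with overlap at every age (0.23 ± 0.25 SE, adjusted p = 0.488).

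Mmp16, a membrane-type enzyme of brain, was at 6.89 and 7.35 FPKM at E21, 3.33 and 3.04 FPKM at P5, 0.929 and 1.57 FPKM at P20 and 0.877 and 0.867 FPKM at P40 (mid-night and mid-day). It was lower in all P40 than all E21 libraries, with a change of -2.12 ± 0.20 (SE; adjusted p = 2.03e-04). Mmp23 measured 1.77 and 1.61 FPKM at E21, 0.975 and 0.851 FPKM at P5, 0.209 and 0.22 FPKM at P20 and 0.32 and 0.0309 FPKM at P40 in the mid-night and mid-day libraries, and is given as a description since it passed the filter through its E21 libraries alone. Mmp17 and Mmp19 missed the test at 0.32 and 0.07. The remaining 12 enzymes were not tested. Mmp11, Mmp9 and Mmp28 reached 1.1, 0.416 and 0.325 FPKM at most, and Mmp21 was listed at 0.

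The other 8 lie side by side on chromosome 8 (rn4 chr8:4158886-4533730): Mmp13, Mmp12, Mmp3, Mmp10, Mmp8, Mmp27, Mmp20 and Mmp7. None exceeded 0.138 FPKM in any library and 3 (Mmp7, Mmp10, Mmp27) were listed at 0 throughout. This cluster holds the interstitial collagenases and stromelysins, which inflammatory and wound signals are known to induce through AP-1. The promoters of the collagenase Mmp13 and the stromelysin Mmp3 are shown as examples of this cluster, 5′ to 3′ on the plus strand of GRCr8 with TATAAA and the AP-1 motif TGANTCA in capitals.
Mmp13, chr8:12782729-12782828: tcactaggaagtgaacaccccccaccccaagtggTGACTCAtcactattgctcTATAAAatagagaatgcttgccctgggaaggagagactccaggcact
Mmp3, chr8:12925181-12925280: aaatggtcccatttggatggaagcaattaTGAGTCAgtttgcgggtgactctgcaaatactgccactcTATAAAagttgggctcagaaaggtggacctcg
TGANTCA, read on both strands, lay in 6 of the 8 cluster promoters, in 0 of the 40 other matrix promoters and in 7.33% of all promoters. TATAAA lay in 7 of the 8, in 6 of the 40 others and in 14.3% of all. A match says nothing of whether a factor binds there.

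Of the 4 inhibitors, all tested, 1 rose and none fell by P40. Timp2, which both inhibits and helps activate Mmp2, had, at mid-night and mid-day, 13.7 and 9.78 FPKM at E21, 24.9 and 16.6 FPKM at P5, 15 and 19.5 FPKM at P20 and 19 and 21.2 FPKM at P40. It was higher at P40 by 0.74 ± 0.25 (SE; adjusted p = 0.0455), with both P40 values above both E21 values. The Timp2 call was lost under 6 settings, with the highest adjusted p, 0.257, without the P40 mid-day library. The ratio of Timp2 to Mmp2 FPKM was 5.41 and 4.6 at P40 (mid-night and mid-day), against 0.525 and 0.599 at E21.

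Timp3, the inhibitor held in the matrix, was at 20 and 15.3 FPKM at E21, 20.5 and 13.6 FPKM at P5, 9.99 and 6.42 FPKM at P20 and 20.5 and 9.25 FPKM at P40 (mid-night and mid-day). Timp1, the inducible inhibitor, measured 2.52 and 2.89 FPKM at E21, 3.23 and 2.35 FPKM at P5, 2.03 and 1.37 FPKM at P20 and 2.64 and 1.47 FPKM at P40 in the mid-night and mid-day libraries. Timp4 had, at mid-night and mid-day, 0.48 and 0.511 FPKM at E21, 0.771 and 0.343 FPKM at P5, 0.422 and 0.837 FPKM at P20 and 1.03 and 1.27 FPKM at P40. Timp3 and Timp1 overlapped between P40 and E21. Timp4 reached 1 FPKM in the 2 P40 libraries alone and so passed the filter only through the age at which it was high. Its higher values at P40 are given as a description. All 3 missed the test, at -0.32 ± 0.21 (SE; adjusted p = 0.248) for Timp3, -0.30 ± 0.22 (SE; adjusted p = 0.284) for Timp1 and 0.52 ± 0.22 (SE; adjusted p = 0.089) for Timp4.

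The steps between successive ages called different numbers of matrix genes. Between P5 and E21, 9 of the 48 genes were lower (18.8%, against 6.84% of all transcripts) and 1 was higher (2.08%, against 8.29%). The largest falls were Col16a1 (-1.55 ± 0.19 SE, adjusted p = 0.00277), Postn (-1.42 ± 0.18 SE, adjusted p = 0.00281), Col5a2 (-1.32 ± 0.23 SE, adjusted p = 0.00983) and Fbn2 (-1.28 ± 0.22 SE, adjusted p = 0.0085). The others were Col1a1, Col1a2, Lum, Mmp16 and Fbln1, and the single rise was Mmp17 (0.72 ± 0.20 SE, adjusted p = 0.0499). The median over the tested matrix genes was -0.06, against -0.04 over all transcripts. The count of 9 was 2 without the P5 mid-day library, 3 without the E21 mid-night library and 4 without the P5 mid-night library, and the Mmp17 call was lost under 12 alternatives. Choroid plexus markers were higher at P5 in 10 of 12 tested, and their part in this step was not tested.

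Between P20 and P5, 21 of the 48 genes were lower (43.8%, against 5.99% of all transcripts) and 3 were higher (6.25%, against 1.02%). The largest falls were Postn (-2.46 ± 0.18 SE, adjusted p = 0.00116), Mmp2 (-2.21 ± 0.34 SE, adjusted p = 0.0124), Col1a1 (-1.94 ± 0.31 SE, adjusted p = 0.0137) and Col5a2 (-1.90 ± 0.23 SE, adjusted p = 0.00588). The 3 rises were Dpt (2.85 ± 0.18 SE, adjusted p = 9.71e-04), Col4a3 (1.70 ± 0.20 SE, adjusted p = 0.00552) and Col23a1 (1.41 ± 0.20 SE, adjusted p = 0.00979). The median was -0.78 over the tested matrix genes and -0.18 over all transcripts. Each count rests on 2 libraries an age: the 21 became 1 without the P5 mid-night or the P20 mid-night library, 7 without P20 mid-day and 10 without P5 mid-day. The rises numbered 2 to 4 when a library was left out. Choroid plexus markers, whose sums at P5 are given above, were lower at P20 in 10 of 12 tested, and the part of those cells in this step was not tested.

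Between P40 and P20 limma called no transcript and no matrix gene. At an unadjusted p under 0.05, 5 matrix genes (Eln, Postn and Mmp17 lower, Dpt and Timp3 higher) and 669 transcripts of all passed. Of the total log2 change between E21 and P40, the 29 genes that fell had covered a median of 27.5% by P5 and 88.9% by P20. For the 6 that rose the medians were 40.3% and 98.3%. Eln was among the falling genes, but its level at P20 still lay within the range of the E21 libraries.

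Most tested matrix genes stood higher at mid-night than at mid-day at E21 and P5, while at P20 and P40 the share that did so was closer to that of all transcripts. At E21, 39 of the 48 tested genes were higher at mid-night than at mid-day, and at P5, 40 were. At P20 the number was 12 and at P40 it was 20. The corresponding shares were 81.2%, 83.3%, 25% and 41.7% of matrix genes, against 47.7%, 61.8%, 32.3% and 43.1% of all transcripts. The median night minus day difference on the log2 scale was 0.36 for E21, 0.28 for P5, -0.13 for P20 and -0.12 for P40, beside -0.01, 0.07, -0.16 and -0.05 over all transcripts. Higher at mid-night at both young ages and lower at both older ages were 18 of 48 genes (37.5%), against 11.4% of all transcripts. Among these 18 were Col1a1, Col1a2, Col3a1, Col4a1, Col5a1, Col5a2, Sparc, Fn1, Mmp2 and Mmp14.

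**Figure D4:**
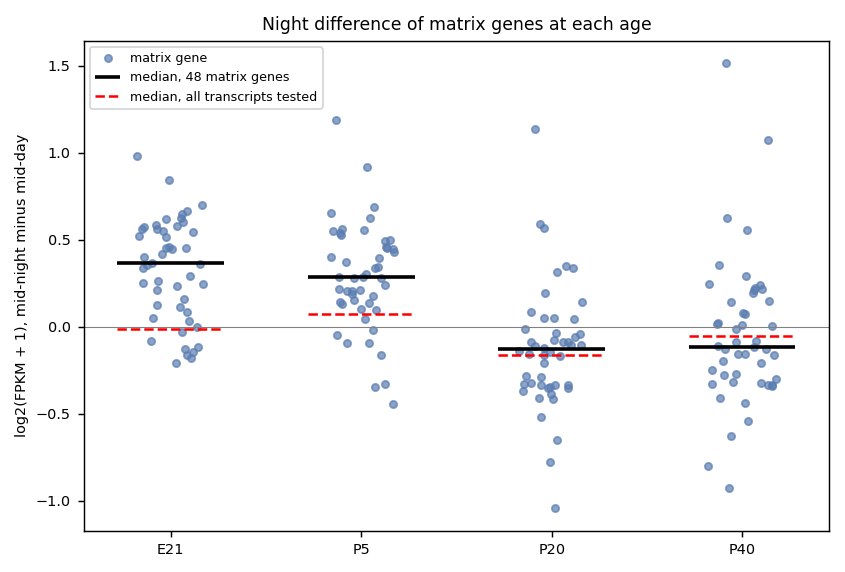
Difference in log2(FPKM + 1) between the mid-night and mid-day library (y axis) at E21, P5, P20 and P40 (x axis). Each point is 1 of the 48 tested matrix genes, solid black lines are their medians and dashed red lines the medians of all transcripts tested. Most points lie above 0 at E21 and P5, and the medians lie below 0 at P20 and P40.

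Taken gene by gene, Lamb3 at P20 and P40 was the sole night difference of a matrix gene to pass. With 1 night effect over all 4 ages, limma called no matrix gene and no transcript at all, and 2 matrix genes and 1011 transcripts had an unadjusted p under 0.05. For E21 and P5 together it called 0 of 48 matrix genes, against 0.0301% of transcripts, with 14 matrix genes and 566 transcripts at an unadjusted p under 0.05. For the difference between the night effect at P20 and P40 and that at E21 and P5 it again called 0 of 48, against 0.753%, with 16 matrix genes and 1299 transcripts at an unadjusted p under 0.05. Of those 14 genes Mmp2 had the largest night difference at E21 and P5 (0.92 ± 0.19 SE, adjusted p = 0.395), and Lum (0.68 ± 0.19 SE, adjusted p = 0.623) followed.

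Summed markers of other cells also differed between mid-night and mid-day. The night to day ratio of the summed matrix FPKM was 1.35 at E21, 1.28 at P5, 0.853 at P20 and 0.857 at P40. The same ratio for 19 markers of fibroblasts and meninges was 1.41, 1.64, 0.821 and 0.793, and for 13 of endothelium 1.28, 1.28, 0.898 and 0.844. The fibroblast and meningeal sum at P5 was 208 and 127 FPKM (mid-night and mid-day). Within it Igfbp2 held 73.9 and 26.2 FPKM and Ptgds 51.4 and 30.8 FPKM, so 2 genes weighed heavily in the 1.64. For choroid plexus markers the ratio was 1.22, 5.49, 1.35 and 1.43, for red cell markers 0.580, 1.29, 0.419 and 1.26, and for pinealocyte markers 1.41, 0.604, 0.747 and 1.35. The part of these cells in the night differences was not tested, and the pool and the time of day cannot be told apart within an age.

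At P20 and P40 together, 1 of the 48 genes was called (2.08%, against 4.39% of transcripts). Lamb3, which encodes the beta chain of laminin-332, the laminin that anchors epithelial cells, was at 0.357 and 0.486 FPKM at E21, 1.75 and 1.49 FPKM at P5, 2.43 and 0.564 FPKM at P20 and 2.66 and 0.283 FPKM at P40 (mid-night and mid-day). At both older ages the mid-night library stood above the mid-day library, 4.32 times at P20 and 9.42 times at P40, while E21 and P5 showed ratios of 0.735 and 1.17. The night difference was 1.32 ± 0.19 (SE; adjusted p = 0.00942) at P20 and P40 and 0.01 ± 0.19 (SE; adjusted p = 0.999) at E21 and P5. The difference between these effects, 1.32 ± 0.26 (SE; adjusted p = 0.0883), missed the test and passed it under 3 other scalings. The Lamb3 call was lost without the P20 mid-night (adjusted p = 0.0526), P40 mid-day (0.114) or P40 mid-night library (0.126), and with no filter on low values (0.0567).

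Next in size were Timp3 and Mmp14, neither called. Timp3 was higher at mid-night than at mid-day at all 4 ages, with ratios of 1.31 at E21, 1.51 at P5, 1.56 at P20 and 2.22 at P40. Its difference at P20 and P40 was 0.82 ± 0.18 (SE; adjusted p = 0.0517), and it was called under 6 other settings. Mmp14 had ratios of 0.673 at P20 and 0.479 at P40, a difference of -0.72 ± 0.18 (SE; adjusted p = 0.068). Col8a1 likewise stood lower at mid-night at both older ages, at -0.70 ± 0.24 (SE; adjusted p = 0.158).

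**Figure D5:**
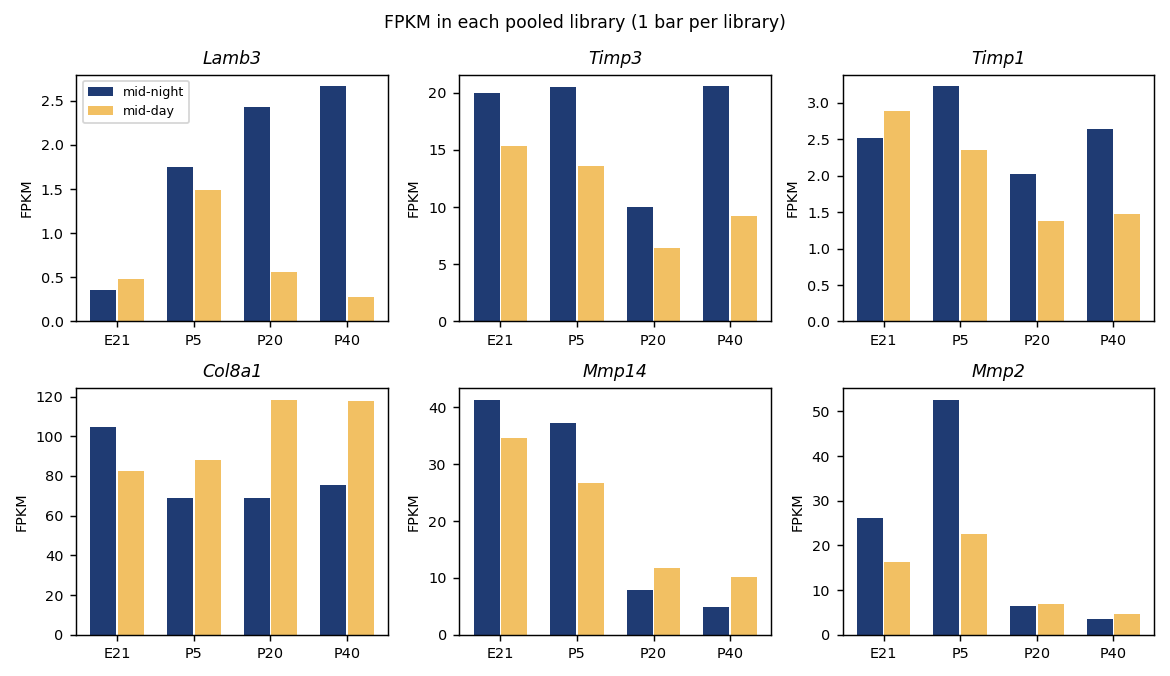
FPKM (y axes, from 0) of Lamb3, Timp3, Timp1, Col8a1, Mmp14 and Mmp2 at E21, P5, P20 and P40 (x axes). Each bar is 1 pooled library, dark for mid-night and light for mid-day. Lamb3 was at 2.43 and 2.66 FPKM at mid-night at P20 and P40, against 0.564 and 0.283 FPKM at mid-day.

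Genes that make or receive the matrix proteins were read from lists chosen with earlier results of these data known. Of 20 tested genes of collagen processing, 12 fell (60%) and 1 rose (5%) between E21 and P40, against 26.8% lower and 16.1% higher over all transcripts. P4hb, a subunit of prolyl 4-hydroxylase, changed by -1.05 ± 0.19 (SE; adjusted p = 0.00371), Serpinh1, the collagen chaperone HSP47, by -1.90 ± 0.23 (SE; adjusted p = 6.83e-04), and P4ha1, the catalytic subunit, by -1.28 ± 0.19 (SE; adjusted p = 0.00143). Serpinh1 stood, at mid-night and mid-day, at 95.9 and 64.3 FPKM at E21, 76.5 and 49.4 FPKM at P5, 22.6 and 24.2 FPKM at P20 and 20.4 and 20.2 FPKM at P40, and its P20 and P40 libraries all lay below those of E21 and P5. Of 19 tested receptors and cell surface proteoglycans, 7 fell (36.8%) and 4 rose (21.1%), shares near those of all transcripts. Itga11, counted as lower, passed the filter through its E21 libraries alone, and Cd44, counted as higher, through its P40 libraries alone. Itgb1, the integrin beta 1 chain, changed by -1.44 ± 0.18 (SE; adjusted p = 8.24e-04) and Sdc3, a syndecan, by -0.69 ± 0.20 (SE; adjusted p = 0.0269), with Sdc4, another syndecan, at 0.79 ± 0.23 (SE; adjusted p = 0.0278).

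Of 25 tested matrix proteins outside the rule, 11 fell (44%) and 5 rose (20%). Mfap4, a microfibril-associated protein, changed by -3.15 ± 0.29 (SE; adjusted p = 1.89e-04) and Ogn, osteoglycin, by -1.22 ± 0.25 (SE; adjusted p = 0.00666), and Sparcl1, a relative of Sparc, rose by 1.88 ± 0.23 (SE; adjusted p = 6.95e-04). Of 16 tested genes of TGF-beta signalling, a pathway that drives collagen synthesis in many tissues, 8 fell (50%) and 0 rose, Smad2 (-0.84 ± 0.24 SE, adjusted p = 0.0241), Tgfb2 (-0.75 ± 0.22 SE, adjusted p = 0.0256) and Smad4 (-0.67 ± 0.17 SE, adjusted p = 0.0167) being the most abundant. Of 14 tested proteases and inhibitors outside the rule, 6 fell (42.9%) and 3 rose (21.4%). The most abundant of those called were the 3 that rose, so the genes named here run against the larger count. They were Cst3, the cysteine protease inhibitor cystatin C, at 1.98 ± 0.53 (SE; adjusted p = 0.0196), Serpine2 at 0.94 ± 0.20 (SE; adjusted p = 0.00782) and Htra1 at 1.16 ± 0.30 (SE; adjusted p = 0.0166).

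Most tested markers of fibroblasts and meninges, endothelium, and smooth muscle and pericytes fell between E21 and P40. Of 18 tested fibroblast and meningeal markers 10 fell (55.6%) and 3 rose (16.7%), and the list summed to 73.9 and 93.2 FPKM at P40 (mid-night and mid-day), against 159 and 113 FPKM at E21. Igfbp2 (-2.79 ± 0.37 SE, adjusted p = 9.63e-04) and Ptgds (-1.87 ± 0.45 SE, adjusted p = 0.0126) fell and Igfbp5 (1.85 ± 0.26 SE, adjusted p = 0.00132) rose. Of 10 tested endothelial markers 9 fell (90%), Ramp2, Emcn and Plvap among them, and the sum was 28 and 33.2 FPKM at P40 (mid-night and mid-day), against 96.6 and 75.7 FPKM at E21. Cldn5 and Slco1a4, of the same list, were listed at 0 in all libraries. Of 8 tested smooth muscle and pericyte markers 5 fell (62.5%) and 0 rose, with sums of 32.9 and 40.1 FPKM at P40 (mid-night and mid-day), against 69 and 51.8 FPKM at E21.

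Cell cycle genes fell in 15 of 16 tested (93.8%), with sums of 36.3 and 25.9 FPKM at P40 (mid-night and mid-day), against 208 and 265 FPKM at E21. Pinealocyte genes rose in 9 of 16 (56.2%) and fell in 1 (6.25%), with sums of 7219 and 5357 FPKM at P40 (mid-night and mid-day), against 1743 and 1233 FPKM at E21. Microglial and macrophage markers rose in 4 of 9 and fell in 2, astrocyte markers rose in 4 of 8 and fell in 4, red cell markers fell in 3 of 5 and rose in 0, Schwann cell markers rose in 1 of 4 and fell in 1, choroid plexus markers rose in 2 of 12 and fell in 2, and the 1 tested muscle and cartilage marker did not pass. The part of these cell types in the change of the matrix genes was not tested.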

How the data were processed

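RNA from pooled rat pineal glands was sequenced as paired-end poly(A) libraries, 1 pool for each of 4 ages at mid-night and mid-day, per the labels' protocols. The authors deposited FPKM values per RefSeq transcript; TopHat 1.3.1, Cufflinks 1.2.0 and the rn4 build are named in the submitters' processing notes. Counts were not used here, so absolute depth is unknown and no counting interval is given; all 8 sample files held the same values as the series table. Transcripts with at least 1 FPKM in 2 libraries (9960) were tested on log2(FPKM + 1), which understates changes of low genes, with limma 3.58.1 in R 4.3.3 (moderated two-sided tests with a mean trend; p adjusted by Benjamini and Hochberg, threshold 0.05). The model held terms for age and for time of day, leaving 3 residual degrees of freedom; a second gave E21 with P5 and P20 with P40 a night effect each (2 residual degrees of freedom). The fits were tested on simulated data. Genes were named by rule: the 4 of highest mean FPKM per role, the 10 largest falls and all rises by P40, the 4 largest per step, any gene called at night, and the 3 most abundant that missed the test; others are named where a count of 5 or fewer needs it. Members, roles and gene lists were chosen with earlier results of these data known. Alternatives were other pseudocounts (0.1, 5), filters, scalings, robust moderation, no time term and leaving out each library; leaving out both P5 libraries was added after seeing the data. Promoters are RefSeq sequences on GRCr8, matched by gene identifier. No gene was dropped other than by the filter, and genes without a row were not analysed here.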

Additional observations from a re-analysis of the deposited data

How the results depend on the processing

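No matrix gene called in a comparison of ages, and no count, changed direction under any alternative run. Genes higher at P5 than at E21 numbered 2 with a pseudocount of 0.1, 4 with median centring and 0 with a pseudocount of 5, no filter, a filter at 5 FPKM or rescaling to a common total. Genes called between mid-night and mid-day at P20 and P40 numbered 2 with a pseudocount of 0.1, quantile normalization, median centring, rescaling and robust moderation, and 0 with no filter. Genes whose night effect differed between older and younger ages numbered 1 (Lamb3) with quantile normalization, median centring and rescaling. Genes lower at P20 than at P5 numbered 11 with no filter, a setting in which 13972 transcripts were tested. The reason for the lower count was not tested. The median change between P40 and E21 was -0.54 with a pseudocount of 5, -0.64 with no filter and -1.58 with a filter at 5 FPKM. Leaving out each library in turn gave 30 to 33 genes changed with age, 21 to 29 lower and 4 to 6 higher at P40 than at E21, 2 to 8 lower and 0 to 1 higher at P5 than at E21, 1 to 21 lower and 2 to 4 higher at P20 than at P5, and 0 to 1 called at night at P20 and P40. It gave 0 for P40 against P20, for the other night tests and for the difference of night effects, and a median change of -1.33 to -0.79. With a library left out, the lone library of that age is assumed to vary like the other ages. Of the calls, 24 of 35 for P40 against E21, 2 of 10 for P5 against E21, 3 of 24 for P20 against P5 and 0 of 1 at night were made under every alternative in which the gene was tested. No paired analysis was possible because no condition was sampled more than once; age and time of day entered the fit as terms instead. With 1 pool a condition, the spread between animals is not measured, and genes under 1 FPKM were below what these libraries could compare.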

Other observations

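A few genes outside the matrix gene rule were picked out after their values had been seen. Itgb6, an epithelial integrin chain that binds latent TGF-beta, stood at 0.0884 and 0 FPKM at E21, 3.06 and 1.1 FPKM at P5, 0 and 0 FPKM at P20 and 0 and 0 FPKM at P40 (mid-night and mid-day). It reached 1 FPKM in the 2 P5 libraries alone and so passed the filter only through the age at which it was high, and its values are given as a description. The P5 mid-night library, where it was highest, also held the highest sum of choroid plexus markers, 18506 and 3369.5 FPKM at mid-night and mid-day, and the part of those cells was not tested.

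Plod2 was a collagen processing gene called between night and day in the older glands. This lysyl hydroxylase of collagen telopeptides stood at 13.4 and 9.91 FPKM at E21, 10 and 10 FPKM at P5, 2.02 and 5.84 FPKM at P20 and 2.41 and 6.7 FPKM at P40 (mid-night and mid-day). At both P20 and P40 its mid-night value was below its mid-day value, and the night difference over both ages was -1.18 ± 0.17 (SE; adjusted p = 0.011). P4ha1, a prolyl 4-hydroxylase subunit, stood at 22.2 and 20.1 FPKM at E21, 10.5 and 7.72 FPKM at P5, 11 and 7.16 FPKM at P20 and 10.4 and 6.26 FPKM at P40 (mid-night and mid-day). It was higher at mid-night at all 4 ages, and its night difference at P20 and P40, 0.60 ± 0.16 (SE; adjusted p = 0.0875), missed the test.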
